A study of Saccharomyces cerevisiae with 24 samples.

Results

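The experiment described here is the last time point of a time-resolved transcriptome of budding yeast after a short exposure to a long-wavelength ultraviolet laser. It covers the 6 RNA-seq libraries taken 60 min after transfer to medium, out of 24 libraries in the series. They were chosen by time point alone, with all genes included, and comprise 3 laser libraries and 3 control libraries. All came from Saccharomyces cerevisiae BY4741, a haploid laboratory strain of mating type a derived from S288C, grown in YEPD (yeast extract, peptone and dextrose), harvested and suspended in phosphate-buffered saline. Each of 3 cultures was divided, and a laser portion, irradiated in aliquots held in a chilled block and then pooled, was set against a control portion that stayed on ice without light. Both portions then went into fresh YEPD at the growth temperature. Suspension in buffer and return to rich medium were thus shared by laser and control cells. Division into aliquots and the chilled block were met by laser cells alone, and their effect apart from the light was not tested. Portions of one culture carry the same number (laser 1 and control 1, and so on), and they were compared within the culture.

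Yeast cells that meet damaged DNA activate the kinases Mec1, Rad53 and Dun1, which inactivate the repressor Crt1 (Rfx1) and so release the genes of ribonucleotide reductase, the enzyme that makes deoxyribonucleotides. Shortage of iron, or failure of the iron-sulfur clusters that report it, brings the activators Aft1 and Aft2 to the promoters of the iron regulon, whose products take up iron and spare it. General stress acts through Msn2 and Msn4, and damaged protein acts in part through Rpn4, the activator of the proteasome genes. Return to glucose medium pushes the other way, toward growth, ribosomes, the cell cycle and the repression of respiratory genes. The comparison at T60 asks which of these responses still separated laser from control cells after an hour in medium.

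The values were RPKM, read numbers scaled by the authors for gene length and library size. The step between low values put the depth of the 6 libraries at between 3583500 and 4905000 mapped reads, and between 421 and 501 genes per library were listed at 0.021, the value given to a gene without reads. Correlation between any of the 6 libraries, across genes on the log2(RPKM + 1) scale, lay between 0.933 and 0.983. Strain markers were read first. STE2, the receptor made by MATa cells, had 359, 589 and 617 RPKM in laser libraries and 409, 523 and 673 RPKM in control libraries, and LEU2, URA3 and MATALPHA1 were at 0.021 in all 6 libraries. A pair of genes went against the BY4741 genotype: MET17 (MET15), listed as deleted, had 163, 284 and 284 RPKM in laser libraries and 82.6, 99.2 and 161 RPKM in control libraries, and LYS2, which BY4741 carries, was at 0.021 in all 6. The strain is therefore named only as the labels give it; both departures were found in laser and in control libraries alike.

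With an RPKM of 1 or more in 3 or more of the 6 libraries, 5877 genes were tested, of which 135 (2.3%) rose and 49 (0.834%) fell in laser cells at an adjusted p under 0.05 and at least a 2-fold change in limma's test, 184 genes or 3.13% in either direction. With no minimum fold, 550 genes (9.36%) were higher and 213 (3.62%) lower. Values of the 3 laser libraries all lay above those of the 3 control libraries in 102 of the 135 genes that rose, and all below in 29 of the 49 that fell; over all tested genes the groups were apart in this way in 569 genes (9.68%) and 186 genes (3.16%). Direction was the same in all 3 cultures in 125 of the 135 and 38 of the 49. This follows in part from the call, which tests the differences within cultures, and no share over all tested genes is given. Transfer RNA genes made up 14 of the genes that rose and 20 of those that fell, and small nucleolar RNA genes 11 and 1. The remaining 110 and 28 are described below by gene list or singly, and not all of them are named. Among all calls, 67 higher and 8 lower genes were in no list.

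**Figure D1:**
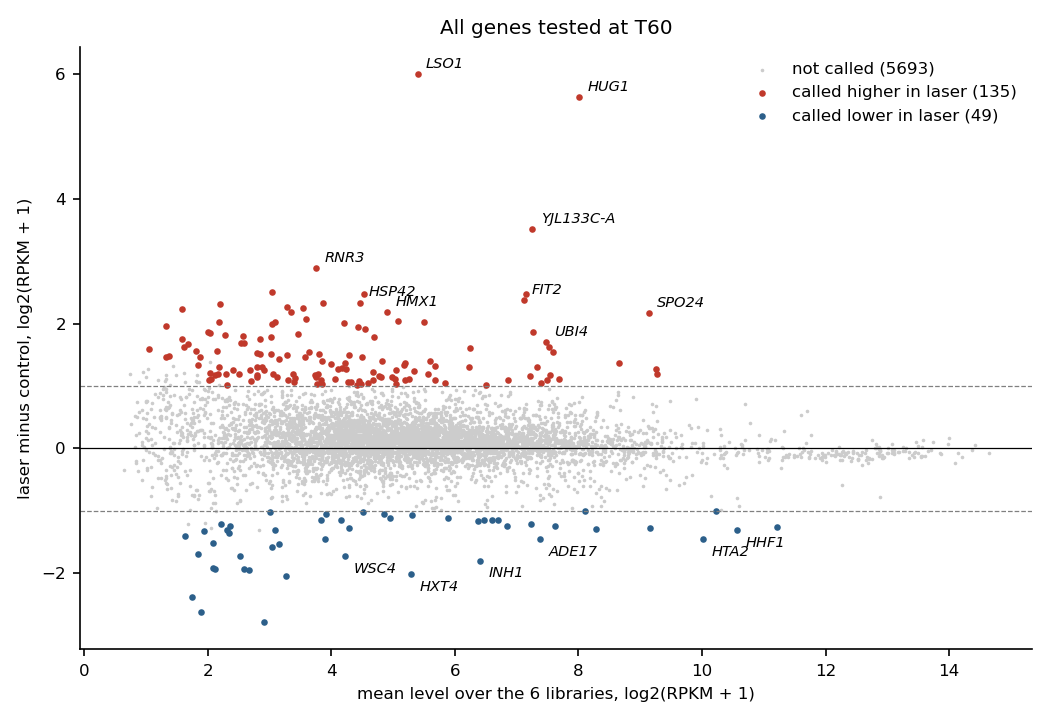
Mean level of each tested gene at T60 (horizontal axis, log2(RPKM + 1) over 6 libraries) against its log2 difference, laser minus control within a culture (vertical axis, log2 units). Red points are the 135 genes that rose, blue points the 49 that fell and grey points the 5693 others; LSO1 and HUG1 stand above all others.

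These counts rest on comparing portions of the same culture, since the test with the culture as a block left 2 residual degrees of freedom per gene and borrowed the rest of its spread from genes of like level. Without the block, 11 genes were called higher and 3 lower, although 135 and 35 genes passed 2-fold and an unadjusted p under 0.05 there. The 11 were LSO1, HUG1, YJL133C-A, RNR3, YPR015C, YHR138C, FIT2, SPO24, IZH4, MAG1 and YBR085C-A, and the 3 were HXT4, HTB2 and the histidine tRNA gene tH[GUG]H. The middle gene of all tested was 0.11 higher in laser cells on the log2 scale (0.01, 0.27 and 0.06 in the 3 cultures), and rescaling the libraries by the median ratio of their genes brought this to 0.01, with 68 genes called higher and 39 lower; the share of higher genes among the calls was 73.4% as deposited and 63.6% after rescaling. All fold changes given below are on the log2(RPKM + 1) scale, which understates changes of genes at a few RPKM.

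The iron regulon held the gene with the largest difference of all. LSO1, a small protein linked to the response to iron shortage, had 63.2, 89.6 and 92.8 RPKM in laser cells, against 0.021, 0.021 and 0.989 RPKM in control cells. In recovered reads these were 320 in the 3 laser libraries together and 1 in the 3 control libraries together, a ratio of 295 at equal depth with a 95% exact interval of 52.5 to 11672 for counting error alone. Its log2 fold change was 6.0 (SE 0.26, adjusted p = 1.59e-46 with limma, and 6.04e-05 without the pairing). FIT2, a cell wall mannoprotein that holds iron carried by siderophores, had 175, 280 and 243 RPKM in laser cells and 39.7, 47.8 and 42.3 RPKM in control cells; its log2 fold change was 2.38 (adjusted p = 1.25e-29). Both genes were far apart between the groups in every culture.

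Of 29 tested members of the iron regulon, 11 rose and none fell, with a median log2 difference of 0.66 beside 0.11 over all genes. Siderophore transporters were 4 of the 11: SIT1 (ARN3) had 34.8, 89.3 and 94.2 RPKM in laser cells and 13.3, 16.2 and 17.6 RPKM in control cells, log2 fold change 2.02, followed by ENB1 (ARN4, 1.37), ARN1 (1.11) and ARN2 (1.03). HMX1, the haem oxygenase that releases iron from haem, had 23.6, 54.3 and 68.8 RPKM in laser cells and 10.7, 9.3 and 7.31 RPKM in control cells (2.19). TIS11 (CTH2), which binds and destabilises messages of iron-using proteins when iron is scarce, had 13.7, 38.5 and 35.1 RPKM in laser cells and 8.45, 4.77 and 4.88 RPKM in control cells (2.01). FRE4, a reductase of siderophore iron, SMF3, which exports iron from the vacuole, and CCC2, which loads copper into the iron oxidase, had log2 fold changes of 1.26, 1.10 and 1.04. In ARN2 and CCC2 the groups overlapped. Laser values of HMX1 were lowest in culture 1, as they were for TIS11 and SIT1, while the control values of HMX1 spanned only 7.31 to 10.7 RPKM.

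Without the pairing 2 members of the list, LSO1 and FIT2, were called, and after rescaling 8. The genes of haem and iron-sulfur cluster synthesis had no call among 20 tested (median 0.04), and the copper regulon none among 8. On the difference between time points, tested in 1 fit of all 24 libraries, 6 iron regulon genes had a larger laser effect at T60 than at T0, and 1 a smaller one (ISU2, a scaffold for iron-sulfur clusters, -1.99, which was not called at T60); 4 had a smaller effect at T60 than at T30.

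Aft1 and Aft2 recognise the core letters TGCACCC, and stretches of the promoters of 6 of the genes that rose are shown to place these letters; capitals mark them on either strand, as TGCACCC or as its reverse GGGTGCA. Each sequence is read toward its gene from the RefSeq R64 assembly and ends at the stated number of bases before the start codon.
LSO1: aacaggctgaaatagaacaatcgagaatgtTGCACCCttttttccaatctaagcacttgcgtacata
FIT2: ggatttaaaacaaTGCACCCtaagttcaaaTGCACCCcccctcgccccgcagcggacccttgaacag
SIT1: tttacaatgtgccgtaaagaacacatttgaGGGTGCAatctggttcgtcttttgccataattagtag
HMX1: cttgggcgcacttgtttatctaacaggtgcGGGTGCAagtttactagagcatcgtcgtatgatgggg
TIS11: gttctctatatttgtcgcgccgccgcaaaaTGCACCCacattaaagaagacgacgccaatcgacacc
ARN1: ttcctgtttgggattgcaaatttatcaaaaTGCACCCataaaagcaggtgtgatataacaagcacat
The stretches are LSO1 at chrX:448867-448933 (minus strand, 175 to 109 bases before the start codon), FIT2 at chrXV:1059252-1059318 (plus strand, 279 to 213 bases before the start codon), SIT1 at chrV:27439-27505 (plus strand, 218 to 152 bases before the start codon), HMX1 at chrXII:554092-554158 (minus strand, 481 to 415 bases before the start codon), TIS11 at chrXII:416871-416937 (minus strand, 279 to 213 bases before the start codon) and ARN1 at chrVIII:21195-21261 (minus strand, 290 to 224 bases before the start codon).
In the 500 bases before the start codon, searched on both strands, TGCACCC stood in 140 of 6000 promoters of nuclear protein-coding genes (2.33%), in all 11 iron regulon genes that rose, in 11 of the 18 other tested members (61.1%) and in 1 of the 28 protein-coding genes that fell. The list was drawn up from genes known to be controlled by Aft1 and Aft2, so that this share follows in part from how the list was made.

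**Figure D2:**
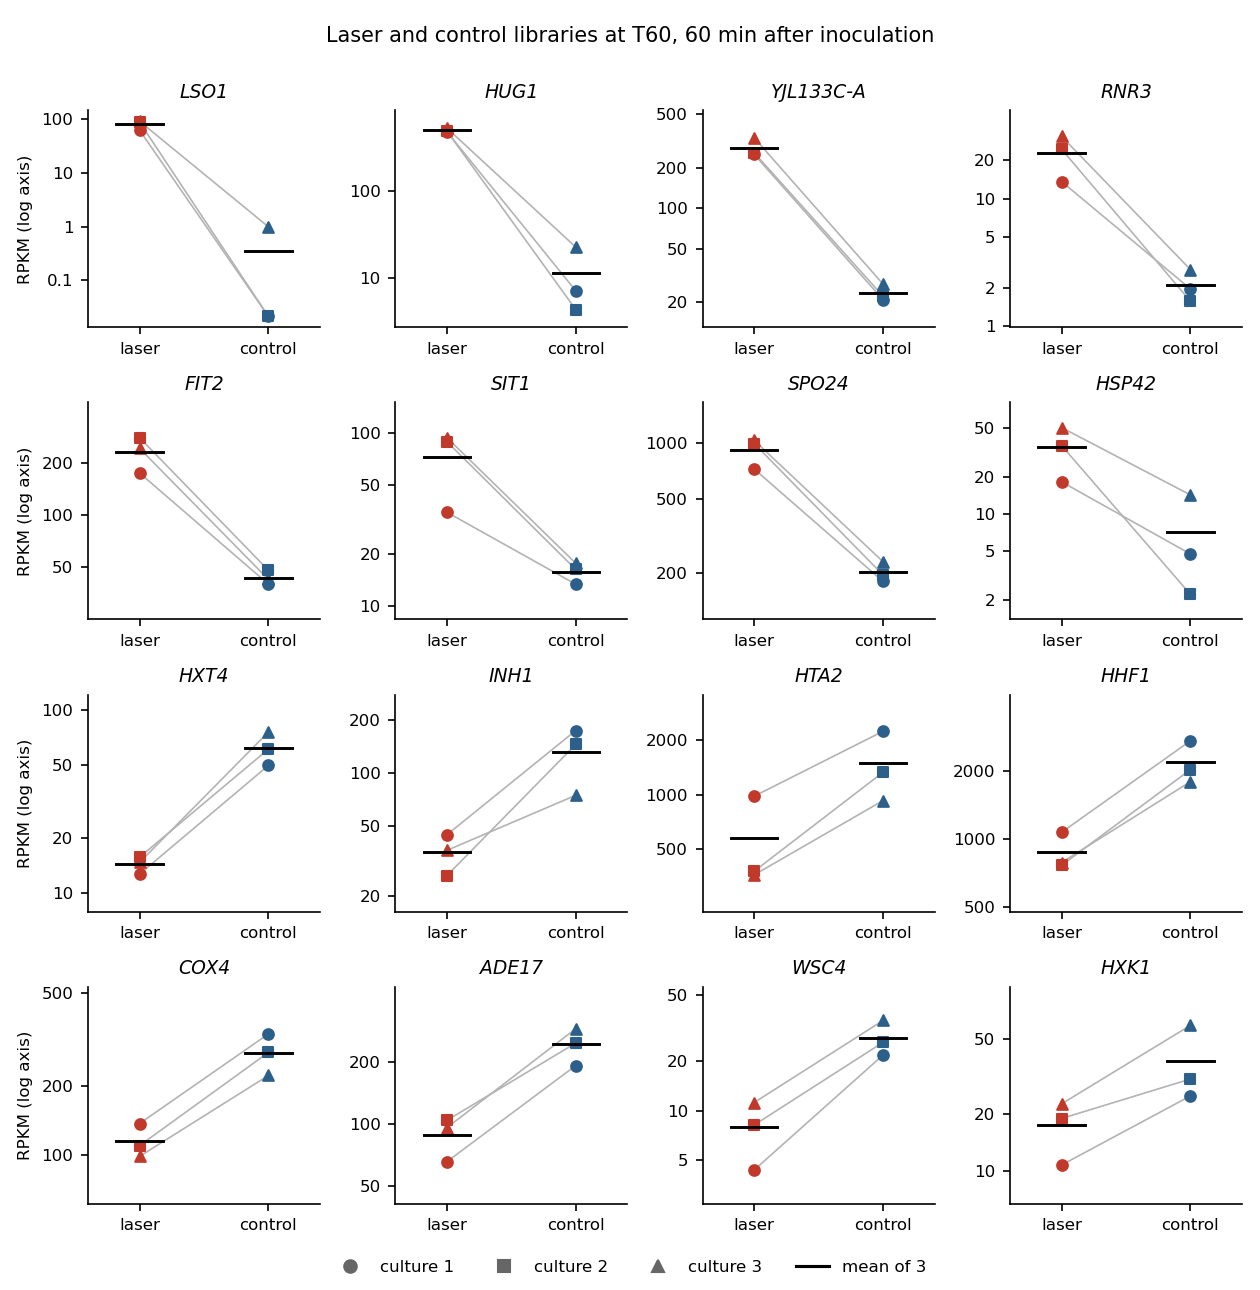
RPKM (vertical axis, log scale) of 16 genes in each of the 6 T60 libraries, laser on the left and control on the right of each panel. Lines join portions of the same culture and black bars are the arithmetic means of 3; LSO1 and HUG1 show the widest gaps, and HXT4, INH1 and COX4 run the other way in each culture.

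HUG1, a small inhibitor of ribonucleotide reductase and a standard reporter of the Mec1 pathway, had 485, 493 and 533 RPKM in laser cells, against 7.21, 4.39 and 22.9 RPKM in control cells, with a log2 difference of 5.63 (SE 0.17, adjusted p = 1.52e-63 with limma, 0.000355 without the pairing). Within the 3 cultures it differed by 5.89, 6.52 and 4.48, more widely than this SE conveys, since the SE rests mostly on genes of like level. The limma fit of all 24 libraries gave an adjusted p of 1.1e-07 for HUG1 at T60. RNR3, the damage-inducible large subunit of the reductase, had 13.6, 24.4 and 30.7 RPKM in laser cells and 1.96, 1.57 and 2.78 RPKM in control cells (2.89). The small subunits followed at a higher level and a lower ratio: RNR2 had 390, 630 and 729 RPKM in laser cells and 178, 211 and 272 RPKM in control cells (1.37). RNR4 had 611, 916 and 1077 RPKM in laser cells and 332, 330 and 390 RPKM in control cells (1.27). Laser values of these 4 genes were above every control value. MAG1, the glycosylase that removes alkylated adenine, had 32.1, 35.7 and 39.6 RPKM in laser cells and 9.81, 7.15 and 9.39 RPKM in control cells (1.92). DDI2, a cyanamide hydratase with a near-identical copy in DDI3, had 5.53, 2.1 and 8.68 RPKM in laser cells and 1.26, 1.34 and 2.06 RPKM in control cells (1.20).

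Those 6 were all the calls among 25 tested damage-induced genes, whose median was 0.50, and 10 were higher with no minimum fold. Repair and checkpoint genes gave no call at 2-fold: none of 44 passed 2-fold, 4 were higher with no minimum fold, and the median was 0.10; RAD59, a recombination gene, was nearest to the threshold, with 16.7, 18.5 and 17.6 RPKM in laser cells and 8.03, 6.98 and 13.2 RPKM in control cells (0.88). DNA replication genes had no call among 34, and POL30, the sliding clamp, was lower in laser cells with no minimum fold, with 140, 128 and 140 RPKM in laser cells and 235, 253 and 269 RPKM in control cells (-0.89). Without the pairing, HUG1, RNR3 and MAG1 kept the call. Laser effects at T60 exceeded those at T0 in 3 damage-induced genes, HUG1 by 4.05, RNR3 by 1.78 and MAG1 by 1.95 on the log2 scale. They were smaller than at T30 in 3 others, DDI1 (-1.71) and PHR1, the photolyase (-1.38), among them, and the list median was 1.20 at T30.

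Crt1 binds the X-box, and one arm of it, GTTGCC, is shown in the promoters of HUG1 and the 3 reductase genes that rose, with capitals on that arm or its reverse GGCAAC.
HUG1: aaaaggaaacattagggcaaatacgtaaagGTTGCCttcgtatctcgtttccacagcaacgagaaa
RNR3: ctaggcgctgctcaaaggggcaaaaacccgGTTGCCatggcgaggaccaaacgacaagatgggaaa
RNR2: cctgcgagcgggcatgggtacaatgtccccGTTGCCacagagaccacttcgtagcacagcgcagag
RNR4: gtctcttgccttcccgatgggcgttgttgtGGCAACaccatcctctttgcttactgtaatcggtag
The stretches are HUG1 at chrXIII:158517-158582 (plus strand, 243 to 178 bases before the start codon), RNR3 at chrIX:240944-241009 (minus strand, 301 to 236 bases before the start codon), RNR2 at chrX:392007-392072 (plus strand, 397 to 332 bases before the start codon) and RNR4 at chrVII:856652-856717 (minus strand, 416 to 351 bases before the start codon).
Being only 6 letters, GTTGCC stood in 13.7% of all promoters within 500 bases, in 4 of the 6 damage-induced genes that rose (the 4 shown) and in 6 of the 19 other tested members.

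Several of the widest gaps belonged to genes outside any list or nearly alone in theirs. YJL133C-A, an uncharacterised small protein, had 250, 257 and 332 RPKM in laser cells and 20.9, 22.2 and 27.3 RPKM in control cells, and differed by 3.52 on the log2 scale (adjusted p = 1.01e-45 with limma, 6.04e-05 without the pairing). YHR138C, whose function is unknown, had 269, 220 and 234 RPKM in laser cells and 46.4, 38.9 and 42.9 RPKM in control cells (2.47). YPR015C, a predicted zinc finger protein, had 10.4, 13.4 and 15.2 RPKM in laser cells and 1.15, 2.14 and 1.12 RPKM in control cells (2.51). SPO24, a small sporulation protein that is counted in the meiosis list, was at the highest level of this group, with 728, 998 and 1038 RPKM in laser cells and 181, 196 and 231 RPKM in control cells (2.17). The groups did not overlap in any of these 4 genes. YDR034W-B, another uncharacterised small protein, had 24, 43.1 and 46.1 RPKM in laser cells and 10.9, 2.92 and 5.37 RPKM in control cells (2.48, adjusted p without the pairing 0.0611), and the control value of culture 1 was nearest to the laser values. ANS1, a putative wall-anchored protein, had 2.44, 2.55 and 1.36 RPKM in laser cells and was listed at 0.021 in all 3 control libraries, so no fold is given. YLR053C, also at 0.021 in all 3 control libraries, had 1.43, 1.25 and 1.33 RPKM in laser cells and was not called (adjusted p = 0.2), nor was the thiamine gene THI12, with 2.29, 2.79 and 2.34 RPKM in laser cells and 0.625, 0.445 and 0.545 RPKM in control cells (adjusted p = 0.107), which has near-identical copies. YJL144W, whose product is linked to desiccation, rose by 2.08.

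Genes of the 26S proteasome were higher in laser cells by less than 2-fold each. None of 36 genes of the 26S proteasome passed 2-fold, while 35 were higher with no minimum fold, with a median log2 difference of 0.66 (0.40, 0.86 and 0.65 in the 3 cultures). This count was sensitive to the test: 22 remained after rescaling, 8 without a trend in the spread, 2 without culture 3, and none without the pairing. PRE3, the caspase-like catalytic subunit, had 285, 357 and 370 RPKM in laser cells and 177, 182 and 211 RPKM in control cells (0.82). RPT1, an ATPase of the base, had 155, 290 and 331 RPKM in laser cells and 114, 133 and 180 RPKM in control cells (0.81). The polyubiquitin gene UBI4, counted among the Msn2 and Msn4 targets, had 170, 293 and 353 RPKM in laser cells and 64.2, 75 and 102 RPKM in control cells (1.71, adjusted p = 1.8e-19 with limma).

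Proteasome partners outside the list were among the genes that rose past 2-fold; these were picked out after their values were seen. UBC5, a ubiquitin-conjugating enzyme, had a log2 fold change of 1.32; OTU1, a deubiquitinase that works with Cdc48, 1.20; ECM29, which binds the proteasome, 1.13; TMC1 and CUZ1, zinc finger proteins of the proteasome and Cdc48, 1.11 and 1.10; UFD1, a Cdc48 cofactor, 1.05; and HUL5, a proteasome-bound ubiquitin ligase, 1.04. In ECM29 and HUL5 the groups overlapped. None of these 7 was called without the pairing.

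Rpn4 binds the proteasome-associated control element, GGTGGCAAA, and a stretch of 2 proteasome promoters is printed to show it, in capitals, as GGTGGCAAA or its reverse TTTGCCACC.
PRE3: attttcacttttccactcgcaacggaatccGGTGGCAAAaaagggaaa
RPT1: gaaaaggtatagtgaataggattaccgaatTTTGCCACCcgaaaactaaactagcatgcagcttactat
The stretches are PRE3 at chrX:435015-435062 (plus strand, 148 to 101 bases before the start codon) and RPT1 at chrXI:174028-174096 (plus strand, 185 to 117 bases before the start codon).
The element stood in 27 of 36 proteasome promoters (75%) and in 1.65% of all, and the first share follows in part from the element having been defined in proteasome promoters. It stood in 6 of the 109 protein-coding genes that rose and in none of the 28 that fell.

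Of 36 tested heat shock and chaperone genes, 3 rose past 2-fold, beside 2.3% of all genes. With no minimum fold 9 were higher and none lower, beside 9.36% and 3.62% of all genes. The 9 became 4 after rescaling and none without the pairing. HSP42, a small chaperone that sorts misfolded protein into deposits, had 18.3, 36.1 and 50.6 RPKM in laser cells and 4.73, 2.22 and 14.3 RPKM in control cells (2.34, adjusted p = 1.75e-15 with limma but 0.167 without the pairing). HSP78, a mitochondrial disaggregase, had 13.3, 21.3 and 32.1 RPKM in laser cells and 7, 5.51 and 11.1 RPKM in control cells (1.35). HSP82, the inducible Hsp90, had 51.7, 116 and 171 RPKM in laser cells and 21.1, 26.2 and 60.8 RPKM in control cells (1.61), where the lowest laser value was below the highest control value. These 3 were the calls among 36 heat shock genes (median 0.24), and none was called without the pairing. HSP82 shares long identical stretches with HSC82, which was not called, so the share of reads given to each is uncertain.

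Targets of Msn2 and Msn4 were split. Of 46 tested, 5 rose (HSP42, UBI4, MOH1, SDP1 and TMA10) and 3 fell (GPH1, GSY2 and HXK1), and the median was 0.17. Over all genes 2.3% rose and 0.834% fell. With no minimum fold 13 targets were higher and 4 lower, and 5 and 3 after rescaling. MOH1, whose function is unknown, had 3.37, 8.31 and 7.84 RPKM in laser cells and 1.53, 2.18 and 0.021 RPKM in control cells (1.82). SDP1, a stress-induced phosphatase of the Slt2 kinase, had 3.35, 4.53 and 4.5 RPKM in laser cells and 0.677, 1.08 and 1.33 RPKM in control cells (1.34). TMA10, which associates with ribosomes, had 35, 55.4 and 63.5 RPKM in laser cells and 18, 20 and 19.2 RPKM in control cells (1.34). The 3 that fell store or spend glucose: GPH1, glycogen phosphorylase, had 0.346, 2.48 and 2.66 RPKM in laser cells and 2.99, 4.95 and 10.9 RPKM in control cells (-1.35). GSY2, glycogen synthase, had 5.09, 9.34 and 9.06 RPKM in laser cells and 14, 16.1 and 25.7 RPKM in control cells (-1.15). HXK1, a hexokinase repressed by glucose, had 10.8, 19 and 22.7 RPKM in laser cells and 25, 30.7 and 58.9 RPKM in control cells (-1.05). None of the 8 was called without the pairing, and without culture 3 none of the 3 lower calls was made. The letters AGGGG of the stress response element stood before 5 of the 5 that rose and 3 of the 3 that fell, in 44 of 47 list members and in 34.1% of all promoters.

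Oxidative stress genes gave 4 calls among 39 (median 0.37), all higher. ECM4, an omega-class glutathione transferase, had 27, 41.9 and 46.8 RPKM in laser cells and 5.94, 10.8 and 16 RPKM in control cells (1.79). OYE3, an NADPH dehydrogenase, had a log2 fold change of 1.53, and ZWF1, the first enzyme of the pentose phosphate pathway, 1.01, with overlapping groups. GRE2, a methylglyoxal reductase, and YAP1, the activator of the oxidative response, lay just under 2-fold at 0.99 and 0.93. SRX1, the sulfiredoxin that repairs overoxidised peroxiredoxin, had 9.77, 22.3 and 17.6 RPKM in laser cells and 3.33, 5.92 and 6.54 RPKM in control cells (1.46), whereas at T0 its log2 difference was 4.85; the T60 effect was smaller by 3.39 on that scale (adjusted p = 0.000238, 24-library fit), the only one of the 135 genes called smaller at T60 than at T0 in that test.

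Few sulfur and nitrogen genes rose past 2-fold. Of 31 tested sulfate assimilation and sulfur amino acid genes, 9 were higher with no minimum fold and none was lower. Over all genes these shares were 9.36% and 3.62%. The list had 29 positive differences and a median of 0.36. In the sulfate assimilation and sulfur amino acid list, 3 of 31 genes rose: MET32, a zinc finger activator of the pathway, 23.2, 14.2 and 15.5 RPKM in laser cells and 6.29, 3.95 and 5.81 RPKM in control cells (1.54); STR3, cystathionine beta-lyase, 8.21, 10.6 and 9.82 RPKM in laser cells and 3.51, 2.6 and 4.19 RPKM in control cells (1.26); and MET17, an enzyme of homocysteine synthesis, with the values given above (1.10). MET17 shares 12 bases at one end with YLR302C on the opposite strand, and whether its reads come from an intact gene was not tested. Of 56 amino acid synthesis genes 3 rose, GDH3 (a glutamate dehydrogenase, 2.25), ARG3 (1.75) and BAT2 (the cytosolic branched-chain aminotransferase, 1.55), with a list median of 0.02. GDH3 had 13.3, 19.6 and 21.6 RPKM in laser cells and 4.35, 3.81 and 1.42 RPKM in control cells.

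Other calls were scattered over lists with 1 or 2 each. IZH4, a membrane protein of the zinc regulon, had 51.2, 57.7 and 49.7 RPKM in laser cells and 15.9, 14.1 and 7.73 RPKM in control cells (2.04, adjusted p without the pairing 0.0234), alone among 13 tested zinc genes. ATG8, the ubiquitin-like protein of autophagosomes, had 46.3, 48.4 and 42.5 RPKM in laser cells and 18.7, 15.4 and 22.1 RPKM in control cells (1.26), and ATG29 rose by 1.02; these were 2 of 34 autophagy genes, 8 of which were higher with no minimum fold. PRB1, the vacuolar proteinase B, and PAI3, the inhibitor of proteinase A, had log2 fold changes of 1.30 and 1.27, with overlapping groups for PRB1, and PBI2, the inhibitor of proteinase B, was lower with no minimum fold (-0.60). CIS1 was the call among 14 drug resistance genes (1.19), SPS19 the second among 24 meiosis genes (1.25), and PAU24 the call among 11 seripauperin genes (1.52). OLE1, the delta-9 fatty acid desaturase and in no list, was abundant, with 546, 981 and 1075 RPKM in laser cells and 351, 355 and 382 RPKM in control cells (1.20).

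Among the genes that fell, histone genes moved as a group. All 10 tested were lower with no minimum fold, 5 of them past 2-fold, and the median log2 difference was -1.0 (-1.01, -1.08 and -1.06 in the 3 cultures). HTA2, for histone H2A, had 980, 375 and 358 RPKM in laser cells and 2249, 1332 and 927 RPKM in control cells (-1.46). HHF1, for H4, had 1067, 763 and 785 RPKM in laser cells and 2706, 2019 and 1786 RPKM in control cells (-1.31). HTB2, for H2B, had 333, 333 and 333 RPKM in laser cells and 806, 730 and 874 RPKM in control cells (-1.27). In HTA2 the laser 1 value lay above the control 3 value, while within each culture laser was lower. HHF2 (-1.26) and HTA1 (-1.0) were the other calls. Each core histone is encoded by a pair of near-identical genes, so reads may be divided between copies in ways that cannot be checked here. HTB2 alone was called without the pairing, and 8 were called after rescaling. Histone transcripts carry little or no poly(A) in many organisms but are polyadenylated in yeast, and the libraries were made from poly(A) RNA.

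G1 cyclins and G1/S genes were lower without reaching 2-fold: none of 21 was called, 13 were lower with no minimum fold, and the median was -0.60 (-0.63, -0.41 and -0.63 in the 3 cultures). CLN1, a G1 cyclin, had 25.4, 35.5 and 38 RPKM in laser cells and 46, 69.3 and 82.8 RPKM in control cells (-0.96). MCD1, a cohesin subunit, had 31.8, 34.2 and 40.6 RPKM in laser cells and 48.5, 63.2 and 84.6 RPKM in control cells (-0.83). The count fell to 3 without culture 3 and to none without the pairing, and after rescaling 4 genes passed 2-fold. The median of this list was -0.15 at T0, -0.01 at T15 and -0.75 at T30. Among 23 G2/M genes none was called, with 1 higher and 1 lower with no minimum fold.

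Nuclear genes of oxidative phosphorylation formed the other group that was lower. Of 41 tested, 33 were lower with no minimum fold and 7 passed 2-fold; the median was -0.64 (-0.57, -0.67 and -0.58 in the 3 cultures). INH1, the inhibitor of the ATP synthase, had 44.5, 26.1 and 36.3 RPKM in laser cells and 174, 145 and 74.6 RPKM in control cells (-1.80, adjusted p = 1.68e-17 with limma, 0.0704 without the pairing). The cytochrome c oxidase subunit gene COX4 had 137, 110 and 98.8 RPKM in laser cells and 334, 278 and 221 RPKM in control cells (-1.25). Its lowest control value was above its highest laser value. Complex III gave COR1 (-1.16), QCR2 (-1.15), QCR10 (-1.21) and cytochrome c1, CYT1 (-1.11), and complex II gave SDH1 (-1.15, groups overlapping). Without culture 3, 12 of 41 were lower with no minimum fold, and without the pairing none. ACO1, aconitase, which carries an iron-sulfur cluster, was the call among 20 genes of the tricarboxylic acid cycle, with 45.8, 67.1 and 87.2 RPKM in laser cells and 114, 139 and 229 RPKM in control cells (-1.24). Mitochondrial ribosomal proteins had no call among 66 (median 0.21), and none of 8 mitochondrially encoded genes reached the minimum level.

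**Figure D3:**
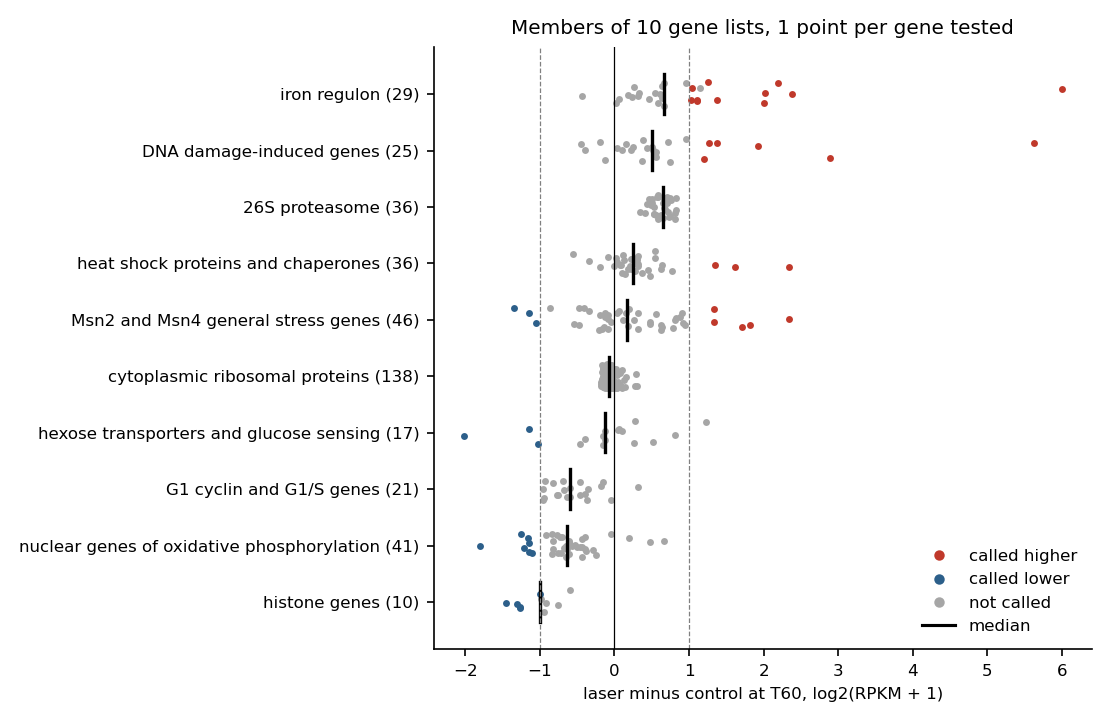
Log2 difference, laser minus control at T60 (axis in log2 units), of each tested gene in 10 lists, with a bar at the list's median. Histone genes lie at a median of -1.0 and nuclear oxidative phosphorylation genes at -0.64, against 0.66 for the iron regulon and the 26S proteasome and 0.11 over all genes.

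Hexose transporters and glucose sensing genes gave 3 calls among 17, all lower. The list itself was split, with 8 positive and 9 negative differences, a median of -0.12 and a largest value of 1.23, not called. HXT4, a high-affinity transporter, had 12.7, 15.7 and 14.7 RPKM in laser cells and 49.7, 61 and 75.6 RPKM in control cells, with a log2 difference of -2.02 (SE 0.18, adjusted p = 7.43e-18 with limma, 0.0107 without the pairing), the largest fall of a protein-coding gene. HXT7 had 44.3, 66.4 and 79 RPKM in laser cells and 100, 138 and 189 RPKM in control cells (-1.15). HXT6 had 1.09, 4.4 and 7.13 RPKM in laser cells and 4.11, 6.37 and 19.2 RPKM in control cells (-1.02); the pair is nearly identical in sequence, so that reads cannot be assigned to one of them with certainty. RGI1, a protein of respiratory growth outside the lists, had 14, 6.71 and 2.69 RPKM in laser cells and 24.1, 20.6 and 14.9 RPKM in control cells (-1.45). Glycolysis and fermentation genes had no call among 24 (median -0.15).

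The remaining lower calls on protein-coding genes were single genes. WSC4, a membrane protein of the endoplasmic reticulum, had 4.38, 8.19 and 11.2 RPKM in laser cells and 21.7, 25.9 and 35.1 RPKM in control cells (-1.73). SRL1, a cell wall mannoprotein, had 138, 185 and 214 RPKM in laser cells and 332, 407 and 601 RPKM in control cells (-1.29). ADE17, which catalyses the last steps to inosine monophosphate, was the call among 27 purine and one-carbon genes, 9 of which were lower with no minimum fold, and had 65.5, 104 and 95.8 RPKM in laser cells and 192, 247 and 290 RPKM in control cells (-1.46); ADE1, an earlier enzyme, was among these (-0.92). CHA1, the serine and threonine deaminase, had 151, 186 and 208 RPKM in laser cells and 327, 303 and 474 RPKM in control cells (-1.0). TPO2, a polyamine exporter, had 39, 66.1 and 74.7 RPKM in laser cells and 99.7, 129 and 168 RPKM in control cells (-1.15). Laser and control values did not overlap in any of these 5 genes, and none was called without the pairing. YMR182W-A and YBR196C-B, both at a few RPKM, fell by 1.95 and 1.31 on the log2 scale.

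Small RNA genes were counted in libraries made from poly(A) RNA, and their calls rest on few reads. Of 299 transfer RNA genes 137 reached the minimum level, and 34 were called, 14 higher and 20 lower; in 5 of the 14 and 5 of the 20 the groups did not overlap. The tyrosine suppressor gene SUP4 had 6.25, 0.021 and 0.021 RPKM in laser cells and 2.84, 6.07 and 14.9 RPKM in control cells (-1.94). The phenylalanine gene tF[GAA]G had 9.63, 14 and 20.9 RPKM in laser cells and 0.021, 3.12 and 7.64 RPKM in control cells (2.19). Such values are a handful of reads on genes of identical sequence at many loci, and tH[GUG]H alone was called without the pairing. Of 76 small nucleolar RNA genes, 11 rose and 1 fell, with a median of 0.37, and the groups did not overlap in 3 of the 11 (snR3, snR47 and snR54). The one lower call, snR6, is the U6 spliceosomal RNA, with 12.6, 20 and 5.84 RPKM in laser libraries and 32.4, 8.12 and 52.3 RPKM in control libraries. snR39 lies within RPL7A, so reads of that host cannot be told apart from its own, and no small nucleolar RNA gene was called without the pairing.

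Cytoplasmic ribosomal protein and ribosome biogenesis genes gave no call. None of 138 cytoplasmic ribosomal protein genes was called with or without a minimum fold, with a median log2 difference of -0.07 (0.14, -0.32 and -0.01 in the 3 cultures), and neither was any of 90 ribosome biogenesis and RNA polymerase I genes, with a median of 0.09. At T30 the ribosomal protein median was -0.48 and at T15 -0.85. No call at 2-fold was made either among the genes of ergosterol synthesis (4 of 27 higher with no minimum fold), thiamine and pyridoxine synthesis, phosphate, amino acid transport or mating.

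Set against the earlier time points, the genes that rose and the genes that fell at T60 differed in their past. The 135 genes that rose had a median log2 difference of 0.18 at T0, 1.29 at T15, 1.76 at T30, and 10, 81 and 87 of them were called higher at those times. The 49 that fell had medians of -0.16, -0.03 and 0.00, with 0, 4 and 3 called lower. Since the members were chosen on T60 values, these are descriptions. Transfer RNA and small nucleolar RNA genes, counted from few reads, were 20 and 1 of the 49 and 14 and 11 of the 135. Medians without them were not computed. In the direct test of the difference between time points (1 fit of all 24 libraries, 6146 genes), the laser effect at T60 was above that at T30 in 68 genes (1.11%) and below it in 290 (4.72%), 358 in all (5.82%); it was above that at T0 in 72 genes (1.17%) and below it in 55 (0.895%), 127 in all (2.07%). Without culture 2 the T30 counts were 36 and 188; the T0 counts were 164 and 55 without culture 1, 23 and 34 without culture 2, and 43 and 27 without culture 3. Without the block for culture they were 16 and 128 for T30, and 25 and 11 for T0.

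General stress genes carried many of the reductions since T30: 39 of 46 Msn2 and Msn4 targets, 12 of 36 heat shock genes, 9 of 12 vacuolar proteases and their inhibitors and 4 of 36 proteasome genes had a smaller laser effect at T60. The list medians were 1.96 at T30 for Msn2 and Msn4 targets, against 0.17 at T60, and 1.45 for the proteasome, against 0.66. A lower laser effect at T60 than at T30 was also called in 6 of 10 histone and 7 of 41 oxidative phosphorylation genes. Their medians had been 0.01 each at T30. Histone genes had medians of -0.43 at T0 and -0.14 at T15, and oxidative phosphorylation genes 0.09 and 0.16. Against T0, the laser effect at T60 was called lower in 2 of 10 and 10 of 41. A larger laser effect at T60 than at T30 was called in 18 of 76 small nucleolar RNA genes, whose median had been -0.61 at T30. It was also called in 8 of 31 sulfate assimilation and sulfur amino acid genes, MET32 (1.71), STR3 (2.76) and MET17 (1.09) among them. Medians of this sulfur list were 0.32 at T0, 1.03 at T15, -0.04 at T30 and 0.36 at T60, so its rise was not new at T60. Between T30 and T60 its median change was -0.08, 0.03 and 0.00 in the laser portions. In the control portions it was -0.75, -0.50 and -0.31, without a test.

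For 4 genes the sign of the call turned from higher to lower: HXK1, GSY2, GPH1 and RGI1. At T30 HXK1 had 45.3, 107 and 112 RPKM in laser cells and 4.25, 8.27 and 17.5 RPKM in control cells, and at T60 10.8, 19 and 22.7 RPKM in laser cells and 25, 30.7 and 58.9 RPKM in control cells; the difference between the 2 log2 effects was -4.14 (adjusted p = 1.55e-07). For GSY2 the difference was -2.23, for GPH1 -2.68 and for RGI1 -3.05. STR3 turned the other way, with 2.28, 7.85 and 6.69 RPKM in laser cells and 16, 15.8 and 16.5 RPKM in control cells at T30. A further 5 genes that turned to higher, snR38, snR39, snR47, SUP16 and YOR192C-C, were at a few RPKM in some libraries.

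**Figure D4:**
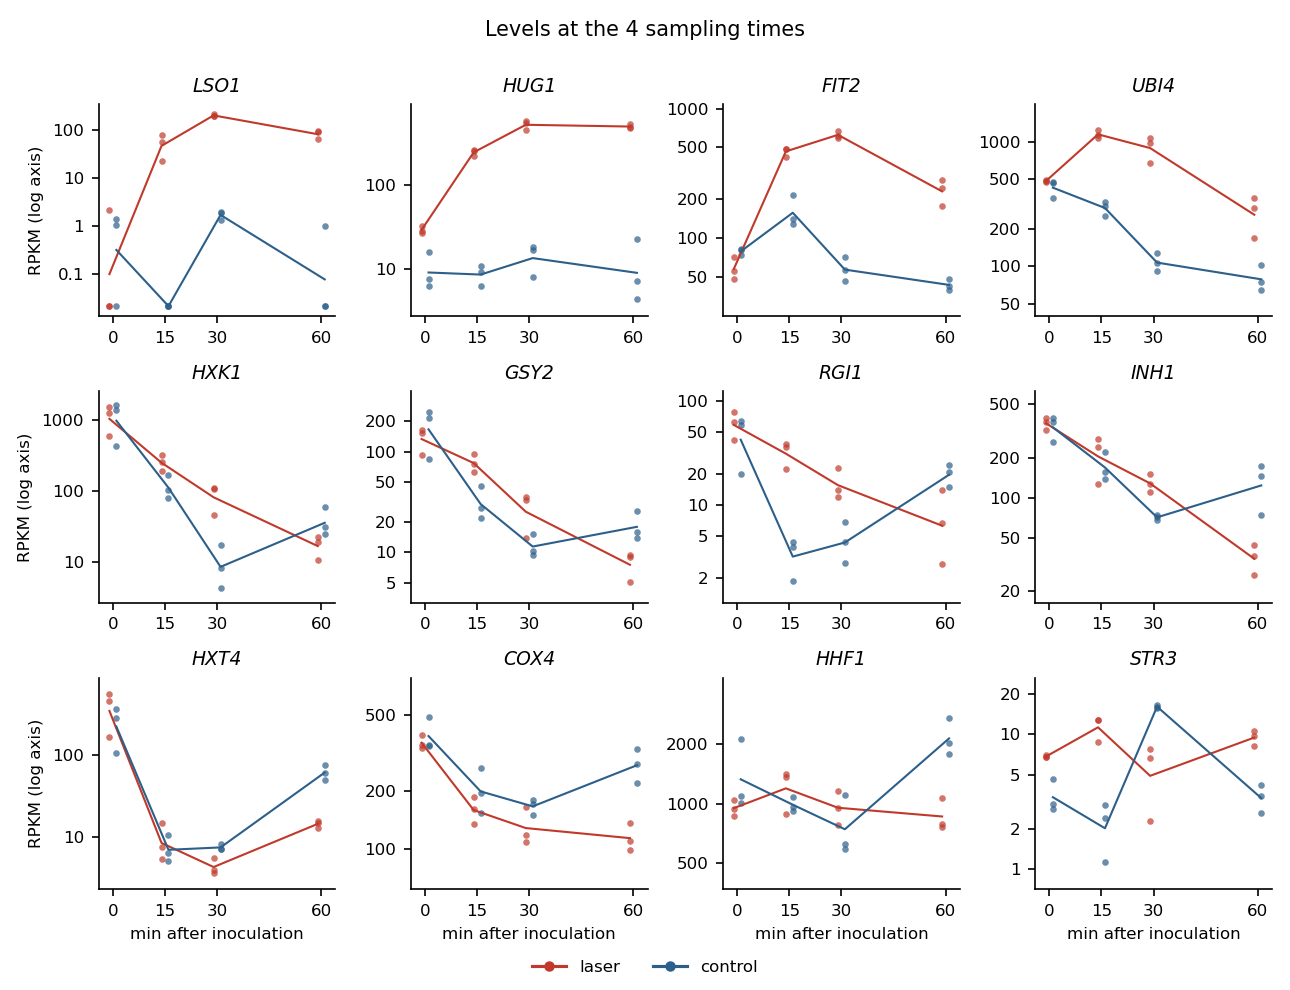
RPKM (vertical axis, log scale) of 12 genes at T0, T15, T30 and T60 (horizontal axis, minutes in medium), with points for each library and lines through the means on the log scale of laser and of control. LSO1 and HUG1 stay apart at T60, UBI4 falls in both portions but stays higher in laser cells, and HXK1 crosses over between T30 and T60.

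The control portions were themselves moving between T30 and T60. HXT4 had 3.87, 3.58 and 5.4 RPKM in laser cells and 7, 6.96 and 8.13 RPKM in control cells at T30, against 12.7, 15.7 and 14.7 RPKM in laser cells and 49.7, 61 and 75.6 RPKM in control cells at T60, so that both portions were higher at T60 and control cells by more. INH1 had 151, 126 and 110 RPKM in laser cells and 72.1, 67.5 and 74.1 RPKM in control cells at T30, and COX4 had 165, 109 and 119 RPKM in laser cells and 180, 150 and 173 RPKM in control cells. INH1 was lower in laser cells at T60 than at T30 in all 3 cultures, while the control values were higher at T60 in 3 of 3, by less than 1 RPKM in culture 3. Over the 10 histone genes the median change between T30 and T60 on the log2 scale was 0.17, -0.04 and 0.15 in the laser portions and 1.06, 1.30 and 1.19 in the control portions. Over the 41 oxidative phosphorylation genes it was -0.11, -0.27 and -0.03 in the laser portions and 0.60, 0.54 and 0.41 in the control portions, beside -0.18, -0.09 and -0.18 in laser and -0.19, -0.06 and 0.02 in control over all genes. In both lists the lower laser effect at T60 thus went with a higher control level at T60 and a nearly level laser portion. Msn2 and Msn4 targets ran otherwise, with -1.96, -2.17 and -2.02 in the laser portions and -0.26, -0.47 and -0.30 in the control portions. These changes within a portion are descriptions, without a test.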

How the data were processed

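Messenger RNA libraries (TruSeq Stranded mRNA, which selects poly(A) RNA) were sequenced, and the authors used SeqMan NGen (alignment to S288C) and ArrayStar to obtain linear RPKM per gene; the assembly number, and whether strand was used, are not given in the sources used here. The deposited RPKM were used as they stand, and each library's depth was inferred from the step of low values: between 92.4% and 96.0% of low values at T60 lay within 0.08 reads of a whole number, against 16% by chance. Intervals cover counting error alone.

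Genes with an RPKM of 1 or more in 3 or more libraries entered limma 3.58.1 (R 4.3.3) on log2(RPKM + 1), with a trend in the spread (residual degrees of freedom 2, prior 138.7), the culture as a block, and Benjamini-Hochberg adjustment over 5877 genes. A call needed an adjusted p under 0.05 and a log2 change of at least 1. Laser effects at T60 were compared with those at T30 and T0 in 1 limma fit of 24 libraries with culture blocks within each time (prior degrees of freedom 7.052). The study drew the samples of all times in turn from the same cultures. This fit treats the laser effects of 1 culture at different times as independent. Pairing comes from the study's methods, since each culture was divided; the correlations of paired deviations were 0.518, -0.033 and 0.532. The portions of a culture are not separate cultures, and n is 3 cultures.

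Genes named in the text were the 15 with the largest rise and the 15 with the largest fall among those called with the same sign in 3 cultures (mean RPKM of at least 1 in both groups or at least 5 in one), up to 5 members of each list with the smallest p, genes the study names for this time, and strain markers; any others were chosen after their values were seen. The members and lists were chosen with earlier results of these data known. Promoters were read from RefSeq R64, to which 6164 of 6427 gene names matched. Alternatives were other pseudocounts (0.1, 5) and filters, no block, no trend, median-ratio rescaling, removal of small RNA genes and of each culture, and the 24-library fit. The code was tested on simulated data. The authors' own columns of fold changes and their significance were not used. The results of 1 gene list and 1 gene are not reported here.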

Additional observations from a re-analysis of the deposited data

Results flagged for a closer look

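In the fit of all 24 libraries, the laser effect of many genes named in the report differed between T60 and an earlier time point by a test of the difference itself. Each value is the log2 effect at T60 minus that at the earlier time. The same 3 cultures were sampled at each time, and the fit did not pair a culture with itself across times. No explanation was tested.

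Against T30, the effect at T60 was higher for snR47 (4.46), YOR192C-C (3.92), SUP16 (3.57), snR38 (3.10) and snR39 (2.70), for the sulfur genes STR3 (2.76), MET32 (1.71) and MET17 (1.09), and for PAU24 (1.42). Among iron regulon genes that had risen, the effect was smaller for FIT2 (-1.07), HMX1 (-1.34), ENB1 (-1.02) and CCC2 (-1.27). The stress and chaperone genes HSP42 (-1.58), HSP78 (-1.59), HSP82 (-1.26), UBI4 (-1.33) and TMA10 (-2.70), and YHR138C (-1.32), had also come down. Carbohydrate and transport genes gave HXK1 (-4.14), RGI1 (-3.05), GPH1 (-2.68), GSY2 (-2.23), HXT4 (-1.34), HXT6 (-1.34) and HXT7 (-1.12). Histone genes gave HHF1 (-1.67), HTA2 (-1.28), HHF2 (-1.18) and HTA1 (-1.08), and respiratory genes INH1 (-2.64), QCR10 (-1.23), CYT1 (-1.23) and SDH1 (-1.07), with WSC4 at -1.11 and CHA1 at -1.56. Oxidative stress, autophagy, vacuolar and meiosis genes gave SRX1 (-2.50), ECM4 (-1.79), GRE2 (-1.04), ATG8 (-1.93), PBI2 (-1.88), PRB1 (-1.82), PAI3 (-1.20) and SPS19 (-1.47), ubiquitin pathway genes UFD1 (-1.16), TMC1 (-1.03) and ECM29 (-1.02), and damage-induced genes DDI1 (-1.71) and PHR1 (-1.38).

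Against T0, the effect at T60 was larger for LSO1 (6.21), HUG1 (4.05), YDR034W-B (3.35), YOR192C-C (3.11), FIT2 (2.82), YJL133C-A (2.69), YHR138C (2.30), GDH3 (2.26), SDP1 (2.17), SIT1 (2.15), YPR015C (2.15), SPO24 (2.0), MAG1 (1.95), HMX1 (1.89), HSP42 (1.83), RNR3 (1.78), ENB1 (1.71), UBI4 (1.53) and ARN2 (1.35), and for IZH4 (2.59), YBR085C-A (2.05), PAI3 (1.97), BAT2 (1.71), OLE1 (1.59), ECM29 (1.46), ATG8 (1.32), CUZ1 (1.31), ECM4 (1.21), UFD1 (1.20), UBC5 (1.17) and OTU1 (1.02). It was lower for SRX1 (-3.39), YMR182W-A (-3.34), HXT4 (-2.66), ADE17 (-2.30), INH1 (-1.90), RGI1 (-1.90), WSC4 (-1.56), COR1 (-1.41), QCR2 (-1.38), SDH1 (-1.34), SRL1 (-1.32), GPH1 (-1.26), HTA2 (-1.26), QCR10 (-1.25), CYT1 (-1.20), HXT7 (-1.20), COX4 (-1.14), HXK1 (-1.13), ISU2 (-1.99), TPO2 (-1.76), ADE1 (-1.30), CHA1 (-1.25) and POL30 (-1.08). YOR192C-C and YMR182W-A are at a few RPKM or less in some libraries.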

How the results depend on the processing

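No called gene named by the rule changed sign under the alternatives run, but the median of the hexose transporter list, -0.12, was 0.05 in the 24-library fit, 0.10 with no filter and 0.09 without culture 1. Without the replicate block, that is the pairing by culture, the T60 counts became 11 higher and 3 lower, the T30 contrast 16 higher and 128 lower, the T0 contrast 25 higher and 11 lower, and the lists 2 for the iron regulon, 3 for damage-induced genes, 1 for histones, 1 for hexose transporters, and 0 for oxidative phosphorylation, heat shock and for Msn2 and Msn4 targets. Of the 184 called genes 14 kept their call there and 170 lost it. In the other alternatives between 0 and 15 of the genes named by the rule lost it, but this set is not the 184. Over all tested genes, with 135 higher and 49 lower in the main fit, rescaling gave 68 higher and 39 lower. With rescaling 8 histone genes were lower and 3 Msn2 and Msn4 targets higher. A pseudocount of 5 gave 63 higher and 22 lower. The 24-library fit gave 28 lower, and removal of tRNA and snoRNA genes 29 lower. Leaving out each culture in turn gave 123 to 172 higher and 34 to 65 lower genes at T60, 36 to 59 and 188 to 308 for the T30 contrast, and 23 to 164 and 27 to 55 for the T0 contrast, where lower genes outnumbered higher ones (34 against 23) without culture 2. Depth limits genes under about 1 RPKM, of which 550 were not tested.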

Other observations

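The letters TGCACCC also stood within 500 bases of 5 genes that rose but are outside the iron list: FMP23 (log2 difference 1.5), YJL077W-B (1.52), HSP78 (1.35), PRB1 (1.30) and YJL163C (1.21). FMP23, a mitochondrial protein, had 36.8, 22.8 and 21.9 RPKM in laser cells and 13.3, 12.5 and 3.7 RPKM in control cells, without overlap.

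Median log2 differences varied little with gene length, with 0.15 in the shortest and 0.08 in the longest of 4 length classes of like size, but the cultures differed: culture 1 had 0.21 in the shortest and -0.13 in the longest class, and culture 2 had 0.07 and 0.34. Calls were unevenly spread over length. The shortest class, up to 729 bases, held 62 higher and 18 lower genes, and the longest 11 and 4.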
